A study of Mus musculus with 31 samples.

Results

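The 10 genes described here, Aqp4, Mlc1, Slc1a2, Slc1a3, Gjb6, Gja1, S100b, Kcnj10, Aldh1l1 and Agt, encode channels, transporters, a secreted precursor and marker proteins of mature astrocytes. They were chosen by name and were present in every RNA table, 10 of 24062 gene names in the sorted-cell tables and 10 of 24322 in the culture tables. The sorted cells were EGFP-positive cells taken by flow cytometry from the dentate gyrus of C57BL/6 mice that carry EGFP under the name Nestin-EGFP, a label of neural stem and progenitor cells and of their recent progeny. All mice were injected intraperitoneally on postnatal days 7, 8 and 9, Control P10 and Control 8w with water and MDZ P10, MDZ 8w and RUN MDZ 8w with 10 mg/kg of midazolam (MDZ), a benzodiazepine sedative. Cells were collected on postnatal day 10 or at 8 weeks, and RUN MDZ 8w came from exposed mice housed with a running wheel. A P10 library held 50000 cells of 1 mouse, and an 8-week library about 30000 cells pooled from 3 to 5 mice. No group of unexposed runners was analysed here. Control culture and Egr1 culture were wild-type ICR neural stem cells from embryonic day 11 cortex, passaged more than 20 times in FGF and EGF and infected with a lentivirus for the M2rtTA transactivator, in Egr1 culture together with one for Flag-tagged Egr1, a zinc finger transcription factor. Each of these 7 groups had 3 libraries.

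Mature astrocytes take up glutamate through Slc1a2 (GLT-1) and Slc1a3 (GLAST), buffer potassium through the inward rectifier Kcnj10 (Kir4.1), and move water through Aqp4, a channel concentrated in the endfeet that wrap blood vessels. Mlc1 encodes an endfoot membrane protein involved in volume regulation, and Gja1 (connexin 43) and Gjb6 (connexin 30) form the gap junctions that join astrocytes into networks. S100b, a calcium-binding protein, Aldh1l1, a folate enzyme, and Agt, the precursor of angiotensin, are used as astrocyte markers. Several of these genes are not restricted to astrocytes: radial glia-like stem cells of the dentate gyrus express Slc1a3 and Aldh1l1, S100b and Kcnj10 are found in the oligodendrocyte lineage, and ependymal cells express Aqp4, Gja1 and S100b.

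The genes lie apart in the mouse genome (GRCm38, the assembly also called mm10). Mlc1 spans chr15:88955884-88982693, Slc1a2 chr2:102658239-102790784, Slc1a3 chr15:8634124-8710807, Gjb6 chr14:57123301-57133611, Gja1 chr10:56377300-56390419, S100b chr10:76253836-76261319, Kcnj10 chr1:172341210-172374085, Aldh1l1 chr6:90550768-90599171 and Agt chr8:124556587-124569706. A promoter of 9 of the 10 was matched in RefSeq. The 250 bases before the start are shown for the 4 genes whose levels changed in the cultures with added Egr1. They are Mlc1 (chr15:88978554-88978803, minus strand, inside the annotated span of the gene), Slc1a3 (chr15:8710808-8711057, minus strand), S100b (chr10:76253586-76253835, plus strand) and Kcnj10 (chr1:172340960-172341209, plus strand), each written 5′ to 3′ from GRCm38.p6, with capitals for a match to the STAT motif described after them.
Mlc1: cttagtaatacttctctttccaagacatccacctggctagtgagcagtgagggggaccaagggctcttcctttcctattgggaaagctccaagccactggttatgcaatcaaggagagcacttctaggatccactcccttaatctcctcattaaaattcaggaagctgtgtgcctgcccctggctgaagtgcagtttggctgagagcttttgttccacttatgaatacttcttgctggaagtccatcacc
Slc1a3: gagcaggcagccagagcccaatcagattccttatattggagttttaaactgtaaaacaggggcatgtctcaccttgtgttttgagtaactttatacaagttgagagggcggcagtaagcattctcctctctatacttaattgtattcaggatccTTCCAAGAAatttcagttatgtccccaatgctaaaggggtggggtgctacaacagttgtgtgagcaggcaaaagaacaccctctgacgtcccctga
S100b: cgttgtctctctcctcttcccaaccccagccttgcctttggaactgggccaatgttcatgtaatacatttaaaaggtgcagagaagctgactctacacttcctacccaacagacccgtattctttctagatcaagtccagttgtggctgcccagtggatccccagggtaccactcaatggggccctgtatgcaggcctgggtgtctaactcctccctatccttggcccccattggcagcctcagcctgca
Kcnj10: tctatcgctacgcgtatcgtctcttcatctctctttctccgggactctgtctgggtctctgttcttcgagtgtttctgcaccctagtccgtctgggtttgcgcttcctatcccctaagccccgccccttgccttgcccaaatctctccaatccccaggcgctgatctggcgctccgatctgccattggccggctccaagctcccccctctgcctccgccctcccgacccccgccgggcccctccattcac
Neither of the 2 Egr1 motifs searched on both strands, GCGTGGGCG and GCGGGGGCG, occurred in any of the 9 promoters (250 bases before the start and 50 after), and they occurred in 0.612% and 2.91% of the 32851 promoters in the table. The palindromic NFI motif was in none of the 9 and in 0.0365% of all. The STAT motif TTCNNNGAA, in 8.3% of all promoters, was found in Slc1a3 at -96 and in Agt at -172. The SOX motif ACAAAG, in 18.7% of all, was found in Kcnj10, at its start and beyond the letters printed. Base composition differed within the 4: the Mlc1 stretch held 0 CpG dinucleotides at 48% GC, Slc1a3 2 at 44.8%, S100b 2 at 53.6% and Kcnj10 17 at 62%, against medians of 6 CpG and 52.4% GC over all promoters. A match is a run of letters and not a bound site.

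Levels are FPKM at P10 and TPM at 8 weeks and in culture, so groups were compared only within each of these 3 sets. Changes are log2 fold changes ± SE from limma on log2(value + 1), which shrinks the changes of low genes, and a gene passed at a Benjamini-Hochberg adjusted p below 0.05 over all genes with a mean of at least 1. Control 8w stood apart, with 11163 to 11397 genes above 0 against 15382 to 16709 in the other 8-week libraries, and of 9623 genes at 10 TPM or more in all 6 exposed libraries, 636, 448 and 517 were listed at 0 in Control 8w replicates 1, 2 and 3. Control 8w replicates 2 and 3 were the closest 8-week pair within a group (Spearman correlation of 0.992, against 0.829 with replicate 1). Pairs within MDZ 8w were at 0.962 to 0.969 and pairs within RUN MDZ 8w at 0.910 to 0.926. Control 8w replicates 2 and 3 were averaged to 1 sample, so n = 2 in that group. Calls with the 3 Control 8w libraries kept apart are given in the closing section. Nes, the stem cell filament gene behind the sort, ran from 8.71 to 11.1 FPKM at P10, from 12.2 to 85.6 TPM at 8 weeks and from 176 to 420 TPM in culture. Nothing in the labels says that the 3 libraries of a culture group came from separate cultures, so p-values there cover only a spread that may be technical.

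On postnatal day 10 the mature astrocyte genes were all expressed and differed little between the groups. Their summed share of the library total was 1.04%, 0.857% and 0.936% in Control P10 replicates 1, 2 and 3, and 0.868%, 0.918% and 0.936% in MDZ P10. In both groups Slc1a3 stood first and Gjb6 last. After Slc1a3 came Slc1a2, Gja1 and Mlc1, whose Control P10 ranges overlapped, then Aqp4 and Kcnj10, each apart from its neighbours, and then Agt, Aldh1l1 and S100b, whose Control P10 ranges overlapped again. In MDZ P10 the order of Agt and Aldh1l1 was exchanged within overlapping ranges, and Slc1a2 lay apart from Gja1.

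The comparison of MDZ P10 with Control P10 asked what the exposure changed soon after the last injection. None of the 10 genes passed, against 0.00774% of the 12914 genes tested (1 gene). At an unadjusted p below 0.05 there were 2 of the 10, Aqp4 and Agt, against 12.2% of all genes. The median change of the 10 was 0.01, and that of all genes was 0.01 as well. Of the 10 genes, 6 had a positive and 4 a negative estimate.

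Aqp4, the water channel (chr18:15389394-15410982), was at 237, 188 and 226 FPKM in Control P10 replicates 1, 2 and 3 and at 182, 184 and 184 FPKM in MDZ P10. All MDZ P10 libraries lay below all Control P10 libraries, the nearest Control P10 library being replicate 2, and Aqp4 was the only one of the 10 whose groups did not overlap (6.61% of all genes were apart in this direction and 18.8% in either). The change was -0.24 ± 0.09 (limma adjusted p = 0.367), and -0.34 without Control P10 replicate 2 (adjusted p = 0.059). Agt, the angiotensin precursor, was at 70.3, 78.2 and 56.5 FPKM in Control P10 and at 49.4, 58.5 and 53.5 FPKM in MDZ P10. Its groups overlapped through Control P10 replicate 3 and MDZ P10 replicate 2, and its estimate was -0.33 ± 0.12 (adjusted p = 0.347).

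The glutamate transporters did not separate the groups. Slc1a3 was at 811, 653 and 811 FPKM in Control P10 and at 726, 774 and 769.6 FPKM in MDZ P10. Slc1a2 was at 416, 355 and 329 FPKM in Control P10 and at 348, 383 and 397 FPKM in MDZ P10. For both the MDZ P10 range lay within the Control P10 range. The 95% interval of the change ran from -0.25 to 0.26 for Slc1a3 and from -0.20 to 0.28 for Slc1a2. Their ratio within a library, Slc1a2 to Slc1a3, was 0.406 to 0.543 over the 6 libraries.

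Among the remaining genes, Mlc1 ranged from 270.0 to 354 FPKM over the 6 libraries, Gja1 from 297 to 364, Kcnj10 from 90.4 to 108, Aldh1l1 from 49.5 to 64.9, S100b from 40.7 to 51.8 and Gjb6 from 23.2 to 38.6. Their groups overlapped, with changes between -0.14 (Kcnj10) and 0.10 (Gjb6) and adjusted p from 0.468 to 0.988. Control P10 replicate 2 was the lowest of the 6 libraries for Mlc1, Slc1a3, Gja1 and Aldh1l1 and the highest for Gjb6, S100b and Agt. The 8 oligodendrocyte markers summed to 2768 FPKM in that library, against 1229 to 1620 FPKM in the others. It was also the shallowest P10 library, at 0.572 of the depth of the deepest, and the part of either in these levels was not tested. Of the other astrocyte genes looked at, none of 14 endfoot and ion homeostasis genes, 11 transmitter uptake genes, 14 metabolism genes, 16 identity markers or 14 fate regulators passed in either direction. Among them Glul, which makes glutamine from glutamate, measured 635 ± 78.6 against 593 ± 35.3 FPKM (n = 3 each, SD), and Hepacam, the endfoot adhesion protein that binds Mlc1, 130 ± 3.18 against 120 ± 7.28 FPKM.

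**Figure D1:**
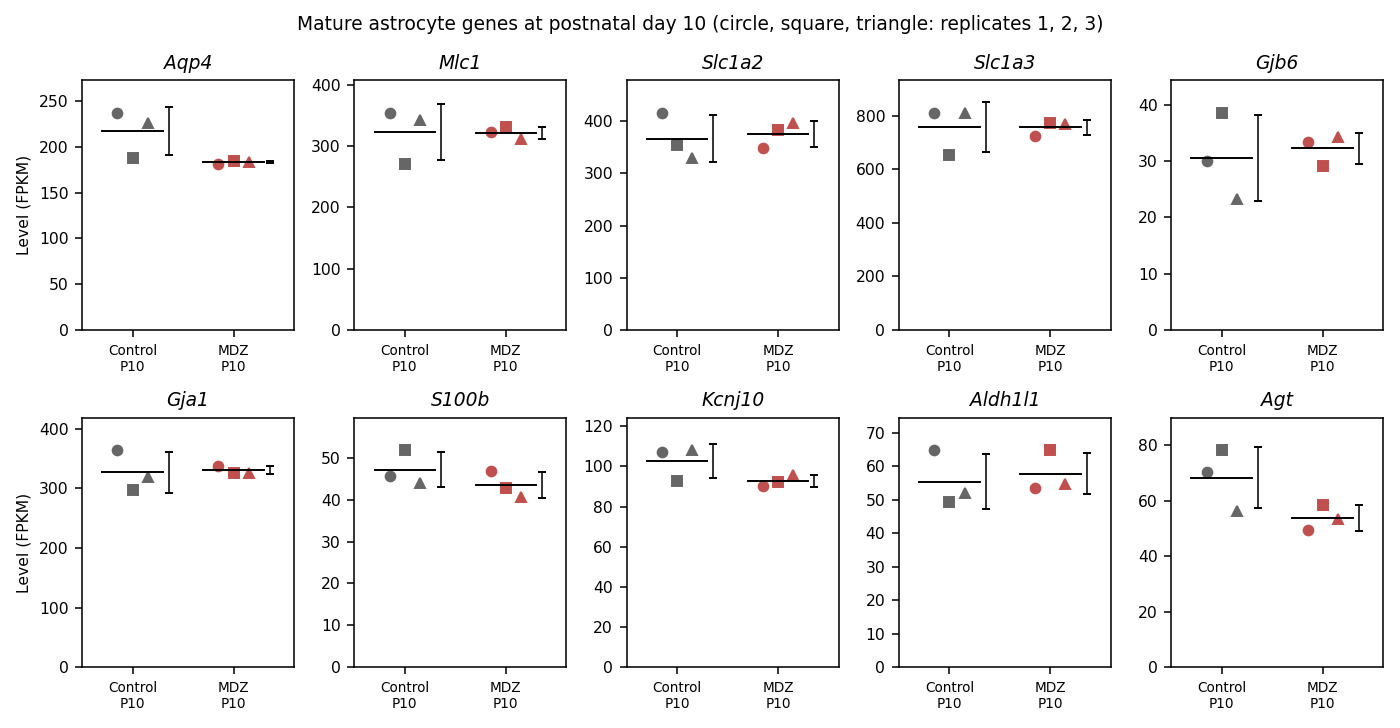
Level in FPKM (vertical axes, from 0) of each of the 10 genes in the 6 libraries at postnatal day 10, with symbols for replicates, a line at the mean and a bar for the SD (n = 3). Aqp4 is the one panel in which every MDZ P10 library (182 to 184 FPKM) lies below every Control P10 library (188 to 237 FPKM).

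At 8 weeks, MDZ 8w was compared with Control 8w to ask which differences were present in adult mice. Mlc1 and Slc1a3 rose, 2 of the 10 genes, against 4.68% of the 15264 genes tested that were called higher (5.13% in either direction). All 10 estimates were positive, with a median of 0.90 against 0.36 over all genes. In 7 of the 10 every MDZ 8w library lay above every Control 8w sample, against 27.8% of all genes (39.1% in either direction). At an unadjusted p below 0.05 there were 6 of the 10, against 22.8% of all genes. The summed share of the 10 genes was 0.158%, 0.149% and 0.138% of the total in Control 8w replicates 1, 2 and 3, and 0.258%, 0.249% and 0.238% in MDZ 8w. In these sorted populations fewer cells of a type and less RNA per cell cannot be told apart.

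Mlc1, the endfoot volume regulation gene, was at 125, 134 and 165 TPM in Control 8w and at 381, 486 and 417 TPM in MDZ 8w. The groups lay far apart, with every MDZ 8w library high. The change was 1.63 ± 0.18 (limma adjusted p = 0.0033). It passed whichever library was left out (adjusted p 0.0016 to 0.0251) and missed the threshold under library quality weights (adjusted p = 0.227). Slc1a3, the glutamate transporter shared with radial glia, was at 716, 840.1 and 736 TPM in Control 8w and at 1162, 1281 and 1081 TPM in MDZ 8w. The groups lay apart, and the change was 0.64 ± 0.14 (adjusted p = 0.0406), above that of 59.2% of all genes tested. This call was lost without Control 8w replicates 1 or 3 (adjusted p 0.0575 and 0.0621), when an MDZ 8w library was dropped (adjusted p 0.0992 to 0.143) and without any one RUN MDZ 8w library (adjusted p 0.0559 to 0.0717), since all 8-week samples share one estimate of the spread. It passed in 5 of 19 alternatives in all.

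The second transporter, Slc1a2, was at 259, 243 and 223 TPM in Control 8w and at 341, 278 and 329 TPM in MDZ 8w. Its groups lay apart as well, but the estimate was smaller, 0.35 ± 0.16, and did not pass (adjusted p = 0.245). The ratio of Slc1a2 to Slc1a3 within a library was 0.362, 0.29 and 0.303 in Control 8w and 0.293, 0.217 and 0.304 in MDZ 8w, which overlapped (exact permutation test of the log2 ratio, two-sided p = 0.5, where 0.1 is the smallest p that 3 against 2 samples allow).

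The connexins and the water channel were higher in every MDZ 8w library without passing. Gja1 was at 67.8, 26.8 and 27.5 TPM in Control 8w and at 146, 150 and 160.2 TPM in MDZ 8w, a change of 1.80 ± 0.42 (adjusted p = 0.0516). Without Control 8w replicate 1, the highest of its group, it passed at 2.44 (adjusted p = 0.0025), and Control 8w was then 1 sample assumed to vary like the others. Gja1 also passed without RUN MDZ 8w replicate 2 (adjusted p = 0.0474). Gjb6 was listed at 0 in Control 8w replicate 1 and was at 5.47 and 10.9 TPM in replicates 2 and 3, against 29.4, 35.1 and 33.9 TPM in MDZ 8w. Its estimate of 3.48 ± 0.84 (adjusted p = 0.057) was 1.88 without Control 8w replicate 1 (adjusted p = 0.0163), and it also passed without Control 8w replicate 3 (3.73, adjusted p = 0.0306). Aqp4 was at 10.1, 13.3 and 10.5 TPM in Control 8w and at 27.8, 25.4 and 24 TPM in MDZ 8w (1.16 ± 0.39, adjusted p = 0.135). Its spread within each of these groups was small beside the gap between them.

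Aldh1l1 was listed at 0 in Control 8w replicate 1, was at 2.1 and 6.47 TPM in replicates 2 and 3, and was at 13.1, 13.4 and 11 TPM in MDZ 8w (2.55 ± 0.75, adjusted p = 0.0989). It passed in 1 of 19 alternatives, without Control 8w replicate 3 (2.93, adjusted p = 0.0392), and its estimate was 1.35 without replicate 1 (adjusted p = 0.0837). The other 3 genes overlapped between the groups. Kcnj10, the potassium channel, was at 233, 151 and 137 TPM in Control 8w and at 234, 159.6 and 180.3 TPM in MDZ 8w (0.04 ± 0.28). S100b was at 129, 43.4 and 36.4 TPM in Control 8w and at 205, 33.4 and 94.4 TPM in MDZ 8w (0.27 ± 0.74), and without MDZ 8w replicate 1 its estimate turned to -0.35. Agt was at 41.8, 31.7 and 27 TPM in Control 8w and at 39.9, 32.5 and 47 TPM in MDZ 8w (0.16 ± 0.42). Adjusted p for these 3 ran from 0.857 to 0.964.

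S100b and Kcnj10 had their highest library in replicate 1 of all 3 groups. The 6 oligodendrocyte precursor markers summed to 3806, 957 and 1006 TPM in Control 8w replicates 1, 2 and 3, to 4976, 1304 and 1741 TPM in the MDZ 8w libraries and 6662, 2256 and 4110 TPM in RUN MDZ 8w. In MDZ 8w and in RUN MDZ 8w the order of the 3 libraries was the same for S100b, for Kcnj10 and for this sum. Pdgfra, a defining receptor of these precursors, was at 640 TPM in MDZ 8w replicate 1 against 128 and 250 TPM in replicates 2 and 3. The part of these cells in the S100b and Kcnj10 levels was not tested.

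Around these genes, the other astrocyte lists had few calls in MDZ 8w against Control 8w. Each list had 0 or 1 call, near the share over all genes of 4.68% higher and 0.452% lower. Their median changes ran from 0.31 to 0.54, against 0.36 over all genes. None of 14 endfoot and ion homeostasis genes passed. Of 11 transmitter uptake genes 1 rose, Slc7a10, a transporter for small neutral amino acids (67 ± 14.3 against 18.4 ± 10 TPM, change 1.89, adjusted p = 0.0428). Of 14 metabolism genes 1 rose, Ppp1r3c, a glycogen-targeting phosphatase subunit, at 35.0, 38.0 and 34.4 TPM against 0, 1.73 and 1.24 TPM. Fgfr3, a receptor found on astrocytes and stem cells, rose alone among 16 identity markers (85.1 ± 11.1 against 23.6 ± 11.1 TPM, change 1.88, adjusted p = 0.0159), and Id4, an inhibitor of differentiation, alone among 14 fate regulators (231 ± 14.8 against 50.4 ± 1.28 TPM, change 2.17, adjusted p = 0.0035). Glul was at 464 ± 67 against 459 ± 122 TPM and did not pass. Gfap, the astrocyte and stem cell filament, was at 131 ± 10.7 against 92.1 ± 15.5 TPM (adjusted p = 0.311). Of the 16 radial glia markers Hopx and Fabp7 rose and none fell, and the markers summed to 2005 to 2123 TPM in Control 8w and to 3163 to 4677 TPM in MDZ 8w. Of 8 ependymal and choroid plexus markers Foxj1, Ccdc153, Tmem212 and Dynlrb2 rose and none fell past the threshold, with 6 of the 8 estimates positive. Foxj1 was at 11.1, 7.58 and 6.98 TPM in MDZ 8w and at 0 in every Control 8w library. Ttr, on the same list, did not pass, at 0.121, 4481 and 4744 TPM in Control 8w and 1.10, 18.5 and 0.832 TPM in MDZ 8w. With it the list summed to 17.4, 4523 and 4799 TPM in Control 8w and to 84.4, 91.0 and 41.4 TPM in MDZ 8w. Of 12 neuroblast and immature neuron genes Neurod1 and Prox1 fell, and the list summed to 7263, 6802 and 7067 TPM in Control 8w and to 4208, 4975 and 5936 TPM in MDZ 8w. Vtn fell alone among 8 pericyte and smooth muscle genes, whose sums were 3713, 2391 and 2630 TPM against 862, 1152 and 1415 TPM. Cdh5 fell alone among 8 endothelial genes. The part of any of these cell types in the 10 genes' levels was not tested.

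**Figure D2:**
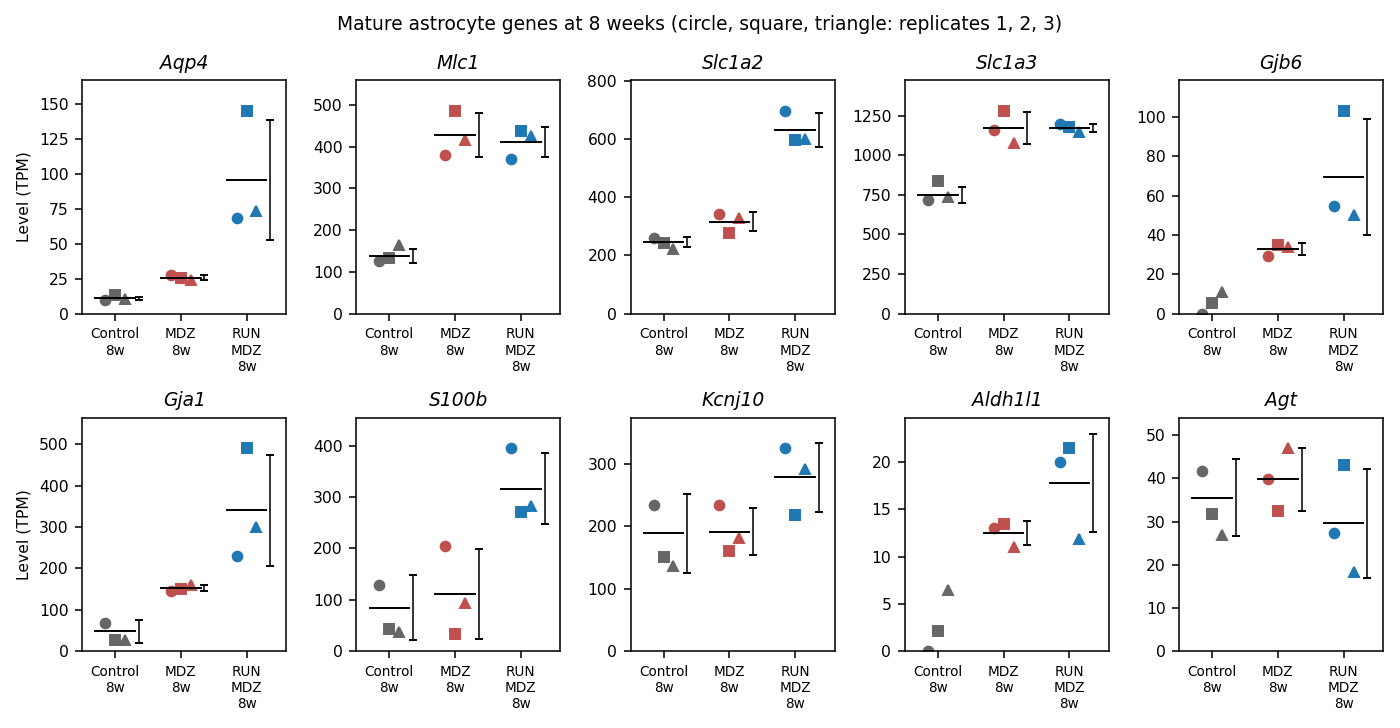
Level in TPM (vertical axes, from 0) of each of the 10 genes in the 9 libraries at 8 weeks, with symbols for replicates, a line at the mean and a bar for the SD, where Control 8w replicates 2 and 3 count as 1 sample; neither is drawn for Control 8w where a library is listed at 0. Mlc1 and Slc1a3 are high in both exposed groups, while Aqp4, Slc1a2, Gja1, Gjb6 and S100b have all RUN MDZ 8w libraries above all MDZ 8w libraries.

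RUN MDZ 8w was compared with MDZ 8w to ask what the running wheel changed in exposed mice. None of the 10 genes passed in limma, against 0.157% of all genes (24 genes, 0.0524% higher and 0.105% lower). At an unadjusted p below 0.05 there were 4 of the 10, against 9.98% of all genes. In 5 genes, Aqp4, Slc1a2, Gjb6, Gja1 and S100b, every RUN MDZ 8w library lay above every MDZ 8w library, against 14.4% of all genes (24.9% in either direction). The median change of the 10 was 0.76, against 0.05 over all genes, and 8 of the 10 estimates were positive. The summed share of the 10 genes was 0.238% to 0.258% of the total in the MDZ 8w libraries and 0.320% to 0.350% in the RUN MDZ 8w libraries.

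Slc1a2 was at 341, 278 and 329 TPM in MDZ 8w and at 697, 596 and 598 TPM in RUN MDZ 8w. All RUN MDZ 8w libraries lay well above all MDZ 8w libraries, and the change of 1.00 ± 0.15 missed the threshold (limma adjusted p = 0.063). It passed with only these 2 groups in the fit (adjusted p = 0.0156), with the 3 Control 8w libraries kept apart (adjusted p = 0.021) and without Control 8w replicate 1 (adjusted p = 0.0196), each of which changes the estimate of the spread but not the values of the groups compared, and with quantile normalization (adjusted p = 0.0452) or library quality weights (adjusted p = 0.0097). Slc1a3 overlapped between the groups, at 1162, 1281 and 1081 TPM in MDZ 8w and 1198, 1176 and 1149 TPM in RUN MDZ 8w. The 95% interval of its change was -0.28 to 0.29. The ratio of Slc1a2 to Slc1a3 within a library was 0.293, 0.217 and 0.304 in MDZ 8w and 0.582, 0.507 and 0.52 in RUN MDZ 8w. This ratio, which needs no scaling between libraries, was higher in all 3 RUN MDZ 8w libraries, by 1.00 on the log2 scale (exact permutation test, two-sided p = 0.1, the smallest that 3 against 3 allow).

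Aqp4 was at 27.8, 25.4 and 24 TPM in MDZ 8w and at 68.2, 145 and 73.6 TPM in RUN MDZ 8w. All 3 RUN MDZ 8w libraries were high, and replicate 2 stood far above the other two. The change was 1.77 ± 0.34 (adjusted p = 0.122), and 1.43 without RUN MDZ 8w replicate 2 (adjusted p = 0.168). It passed with only the 2 groups in the fit (adjusted p = 0.0252) without Control 8w replicate 1 (adjusted p = 0.0343) and with quality weights (adjusted p = 0.0136). Kcnj10, its neighbour in the endfoot membrane, was at 234, 159.6 and 180.3 TPM in MDZ 8w and at 325, 218 and 291 TPM in RUN MDZ 8w, and these overlapped (0.54 ± 0.25, adjusted p = 0.545). The ratio of Aqp4 to Kcnj10 was 0.0435, 0.0878 and 0.0765 in Control 8w replicates 1, 2 and 3, 0.119, 0.159 and 0.133 in MDZ 8w, and 0.21, 0.665 and 0.253 in RUN MDZ 8w. The 3 groups did not overlap in this ratio (log2 differences of 1.19 for MDZ 8w against Control 8w and 1.27 for RUN MDZ 8w against MDZ 8w, exact permutation p = 0.1 for each, the smallest possible). At P10 it was 2.21, 2.03 and 2.09 in Control P10 and 2.01, 2 and 1.91 in MDZ P10, again without overlap (-0.10, exact permutation p = 0.1).

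**Figure D3:**
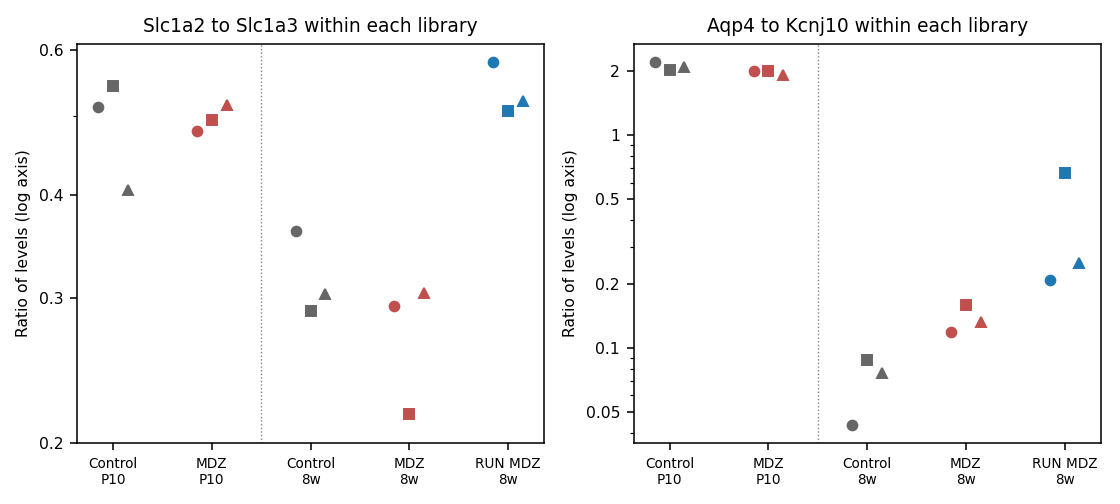
Ratio of Slc1a2 to Slc1a3 (left) and of Aqp4 to Kcnj10 (right) within each library, on log axes, for the P10 and 8-week groups, with symbols for replicates. At 8 weeks the RUN MDZ 8w libraries (0.507 to 0.582) lie above the MDZ 8w libraries (0.217 to 0.304) in the first ratio, and the 3 groups do not overlap in the second.

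Both connexins were highest in RUN MDZ 8w replicate 2. Gja1 was at 146, 150 and 160.2 TPM in MDZ 8w and at 231, 491 and 300.1 TPM in RUN MDZ 8w (1.09 ± 0.38, adjusted p = 0.369, and 0.0426 with quality weights). Gjb6 was at 29.4, 35.1 and 33.9 TPM in MDZ 8w and at 55, 103 and 50.2 TPM in RUN MDZ 8w (0.99 ± 0.75, adjusted p = 0.791). In proportion to each other, Gjb6 was between 0.201 and 0.234 of Gja1 in MDZ 8w libraries and between 0.167 and 0.238 in RUN MDZ 8w, ranges that overlapped (exact permutation p = 0.8). S100b was at 205, 33.4 and 94.4 TPM in MDZ 8w and at 395, 271 and 282 TPM in RUN MDZ 8w (1.83 ± 0.66, adjusted p = 0.399). Its lowest RUN MDZ 8w library was above its highest MDZ 8w library in spite of the wide spread within MDZ 8w.

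Mlc1 overlapped between the exposed groups, at 381, 486 and 417 TPM in MDZ 8w and at 371, 437 and 425 TPM in RUN MDZ 8w (-0.05 ± 0.16). Aldh1l1 was at 13.1, 13.4 and 11 TPM in MDZ 8w and at 20.0, 21.5 and 11.8 TPM in RUN MDZ 8w, and Agt at 39.9, 32.5 and 47 TPM and at 27.4, 43.1 and 18.3 TPM. These 2 genes overlapped between the groups (0.44 ± 0.67 and -0.48 ± 0.37).

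None of the 14 endfoot, 11 uptake, 14 metabolism, 16 identity or 14 fate genes passed in RUN MDZ 8w against MDZ 8w. Glul was at 433, 541 and 419 TPM in MDZ 8w and at 813, 1147 and 819 TPM in RUN MDZ 8w (0.98 ± 0.21, adjusted p = 0.154), so its groups lay apart as those of Slc1a2 did. Markers of vessels, which endfeet contact, did pass: Cldn5, Flt1, Cdh5 and Abcb1a rose among 8 endothelial genes, and Acta2 among 8 pericyte and smooth muscle genes. Cldn5, a tight junction protein, was at 145, 159 and 147 TPM in MDZ 8w and at 333, 439 and 447 TPM in RUN MDZ 8w. The 8 endothelial markers summed to between 269 and 318 TPM in MDZ 8w libraries and to between 897 and 1075 TPM with the wheel, and the 8 oligodendrocyte markers to 196 to 979 TPM and to 2613 to 3931 TPM. The 6 ependymal markers (Foxj1, Ccdc153, Tmem212, Dynlrb2, Rsph1 and Pifo) summed to 39.5 to 78.5 TPM in MDZ 8w libraries and 317, 614 and 539 TPM in RUN MDZ 8w replicates 1, 2 and 3. Ttr, a choroid plexus transcript, was at 3552 TPM in RUN MDZ 8w replicate 2, the library highest in Aqp4, Gja1 and Gjb6, and at 0.119 and 0.208 TPM in the other two. In Control 8w replicates 1, 2 and 3 Ttr was at 0.121, 4481 and 4744 TPM. In the same order Aqp4 was at 10.1, 13.3 and 10.5 TPM, Gjb6 at 0, 5.47 and 10.9 TPM and Gja1 at 67.8, 26.8 and 27.5 TPM. None of 16 radial glia markers passed, with 12 estimates of 16 negative and a median of -0.46, and their sums were 3829, 4677 and 3163 TPM in MDZ 8w and 2866, 2961 and 2571 TPM in RUN MDZ 8w. None of 7 microglia markers passed either, with all 7 estimates negative, a median of -1.13 and sums of 134, 242 and 95.5 TPM against 83.6, 149 and 72.4 TPM. The part of endothelial, pericyte, oligodendrocyte, ependymal, choroid plexus, radial glia and microglia cells in the 10 genes' levels was not tested.

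RUN MDZ 8w against Control 8w shares its groups with the 2 preceding comparisons and gives the sum of their estimates. Of the 10 genes, 7 passed, all higher, against 9.41% of all genes (1.9% lower, 11.3% in either direction). The median change was 1.84, against 0.51 over all genes. In 8 of the 10 every RUN MDZ 8w library lay above every Control 8w sample, against 24.4% of all genes (35% in either direction). With only these 2 groups in the fit, or with library quality weights, none of the 10 and none of all genes passed in limma. At an unadjusted p below 0.05 there were 8 of the 10 and 2742 of all genes in the 2-group fit, and 6 and 1531 with quality weights. In the 2-group fit Aqp4, Mlc1, Slc1a2 and Gja1 shared the lowest adjusted p of the 10, 0.0845.

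Gjb6 (4.47 ± 0.84, adjusted p = 0.0161) and Aldh1l1 (2.99 ± 0.75, adjusted p = 0.0417) were both listed at 0 in Control 8w replicate 1. Without that library their estimates were 2.87 and 1.79, below the 3.53 of Gja1 in the same fit, and Aldh1l1 passed in 6 of 19 alternatives. Aqp4 rose from 11 ± 1.23 TPM (n = 2) to 95.6 ± 42.8 TPM (n = 3), a change of 2.93 ± 0.39 (adjusted p = 0.0046). Gja1 rose from 47.5 ± 28.8 to 341 ± 134 TPM (2.88 ± 0.42, adjusted p = 0.0064). Mlc1 rose from 137 ± 16.8 to 411 ± 35.2 TPM (1.58 ± 0.18, adjusted p = 0.0029) and Slc1a2 from 246 ± 18.4 to 630 ± 57.7 TPM (1.35 ± 0.16, adjusted p = 0.0034). Slc1a3 rose from 752 ± 50.6 to 1174 ± 24.4 TPM (0.64 ± 0.14, adjusted p = 0.0264). This change lay above that of 53.5% of all genes tested, whose median was 0.51.

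Aqp4, Mlc1, Slc1a2, Gja1 and Gjb6 passed whichever one library was left out of the 8-week fit. Slc1a3 lost its call without MDZ 8w replicate 1, without replicate 3 and without any of the RUN MDZ 8w libraries (adjusted p 0.0517 to 0.066). Aldh1l1 lost its call without Control 8w replicate 2 and without each of the exposed libraries in turn (adjusted p 0.0714 to 0.103). S100b (2.10 ± 0.74, adjusted p = 0.112) and Kcnj10 (0.58 ± 0.28, adjusted p = 0.226) did not pass, but did so without Control 8w replicate 1 (2.93 and 0.92, adjusted p 0.0271 and 0.0459), their highest control library. Agt was the single negative estimate (-0.32 ± 0.42, adjusted p = 0.621).

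The astrocyte lists around the 10 genes were called as follows, where 9.41% of all genes were called higher and 1.9% lower. Of 14 endfoot and ion homeostasis genes 5 rose and none fell, among them Hepacam, which rose from 98.3 ± 2.69 to 216 ± 32.0 TPM (1.12, adjusted p = 0.0287), and the bicarbonate transporter Slc4a4 (57.0 ± 11.4 against 19.5 ± 5.46 TPM). Of 11 uptake genes 4 rose, Glul (926 ± 191 against 459 ± 122 TPM, 1.02, adjusted p = 0.0341), Glud1, Slc7a10 and the GABA transporter Slc6a11 (175 ± 47.1 against 51.6 ± 1.86 TPM). Of 14 metabolism genes 6 rose, and of 16 identity markers 5 rose, among them the endothelin receptor Ednrb (238 ± 70.9 against 51.4 ± 4.06 TPM), while Gfap did not pass (adjusted p = 0.0881). Of 14 fate regulators Id1, Id3 and Id4 rose and Lhx2, a LIM homeobox factor, fell, and Sox9 did not pass (adjusted p = 0.0926). The oligodendrocyte list passed in full, 8 of 8 higher, the endothelial list with 6 of 8 and the ependymal and choroid plexus list with 5 of 8. Of 12 neuroblast and immature neuron genes none rose and Neurod1, Prox1, Tubb3, Igfbpl1 and Eomes fell, 5 in all, and the list summed to 6802 to 7263 TPM in Control 8w and to 4274 to 4705 TPM in RUN MDZ 8w. The part of these cell types in the changes of the 10 genes was not tested. Among relatives of the 10, Aqp11 rose (22.1, 17.6 and 8.25 TPM against 0.112, 0 and 0 TPM) and none of 4 tested SLC1 transporters passed. Renin itself (Ren1), the enzyme that cleaves the Agt product, was listed at 0 in all 9 libraries.

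The order of the 10 levels differed among the 8-week groups. Slc1a3 stood first and apart from the next gene in all 3 groups. Mlc1 stood second in MDZ 8w (428 ± 53.7 TPM) and apart from Slc1a2 (316 ± 33.4 TPM), whereas Slc1a2 stood second in RUN MDZ 8w (630 ± 57.7 TPM) and apart from Mlc1 (411 ± 35.2 TPM). In Control 8w the ranges of neighbours from Slc1a2 down to Agt (Slc1a2, Kcnj10, Mlc1, S100b, Gja1, Agt) overlapped pairwise. Aqp4, Gjb6 and Aldh1l1 were the 3 lowest in Control 8w. Aldh1l1 was the lowest of the 10 in all 3 groups.

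Over the 8 samples at 8 weeks, the genes most like each of the 10 were found among 11356 genes with a mean of at least 10 TPM. Likeness was the root mean square difference of their log2(value + 1) profiles after each was centred, a description with no test, since the samples share library and depth. Aqp4 was nearest to Egfl7, a gene known from endothelium (difference 0.43, against 1.21 for the spread of Aqp4 about its own mean), and Kank3 (0.43), and its 100 nearest genes held Gja1 and Slc1a2. S100b was nearest to Cp, ceruloplasmin (0.33), and to Gjc3, a connexin known from oligodendrocytes (0.33), against its own spread of 1.23. Gja1 was nearest to Fosb (0.27) and Rn45s, Gjb6 to Baalc (0.32) and Gas2, with Aldh1l1 among its 100 nearest. For Mlc1 the nearest were Nol7 (0.11) and Prkaa1, for Slc1a2 Tspyl4 and Rabl2, for Slc1a3 Mrfap1 and Dazap2, for Kcnj10 Taok3 and Ncam1, for Aldh1l1 D3Ertd751e and Atpaf1, and for Agt 1110004E09Rik and Ppp1r15a.

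In culture, Egr1 was added to ask what this factor changes in neural stem cells. Egr1 itself, the added gene, was at 361, 285 and 344 TPM in Control culture replicates 1, 2 and 3 and at 1769, 1390 and 1291 TPM in Egr1 culture (2.16 ± 0.13, limma adjusted p = 4.02e-06), in the direction of the labels. Levels of the 10 genes were very uneven in these cells. Gjb6 was listed at 0 in all 6 libraries and Aqp4 did not exceed 0.131 TPM, so neither was tested. Mlc1 stood first and Slc1a3 second in both groups, each apart from its neighbours, while Slc1a2 was at 1.23 to 2.89 TPM, 0.00583 to 0.00853 of the Slc1a3 level of its library. The 10 genes summed to 0.0764% to 0.0831% of the total in Control culture and to 0.0480% to 0.0551% in Egr1 culture.

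Of the 8 genes tested, 2 fell and 2 rose with added Egr1. Over all genes 44.2% of 12402 passed, 29% lower and 15.2% higher, so 4 of 8 is near the background. The groups did not overlap for 6 of the 8 genes, 4 lower and 2 higher, against 37.1% lower, 18.4% higher and 55.5% in either direction over all genes. At an unadjusted p below 0.05 there were also 6 of the 8, against 51.9% of all genes. The median change of the 8 was -0.20, against -0.10 over all genes. Median-of-ratios scaling moved the median of all genes to 0.01 and the calls from 1888 higher and 3598 lower to 2776 higher and 2721 lower, and the 4 genes passed in the same directions under it.

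Mlc1 was at 409, 379 and 398 TPM in Control culture and at 256, 269.8 and 248 TPM in Egr1 culture. The groups lay far apart beside the spread within them, and Mlc1 fell by 0.61 ± 0.06 on the log2 scale (adjusted p = 5.89e-05). Slc1a3 was at 306, 327 and 369.8 TPM in Control culture and at 203, 218 and 169.9 TPM in Egr1 culture, and fell by 0.76 ± 0.10 (adjusted p = 0.000434). S100b was at 10.3, 12 and 11.2 TPM in Control culture and at 16.7, 17.1 and 18.5 TPM in Egr1 culture, and rose by 0.60 ± 0.09 (adjusted p = 0.000874). These 3 genes passed under all 14 alternatives run for the culture libraries. Their upstream stretches, printed above, hold no Egr1 motif of the 2 searched.

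Kcnj10 was at 3.17, 4.03 and 3.99 TPM in Control culture and at 5.71, 5.84 and 4.85 TPM in Egr1 culture. It rose by 0.45 ± 0.13 (adjusted p = 0.0193), but not past the threshold without Control culture replicate 1 or Egr1 culture replicates 1 or 2 (adjusted p 0.0685, 0.057 and 0.0689). Its GC-rich upstream stretch holds neither Egr1 motif. Aldh1l1 was at 5.6, 4.83 and 4.89 TPM in Control culture and at 3.93, 4.27 and 3.24 TPM in Egr1 culture (-0.35 ± 0.13, adjusted p = 0.0528). Slc1a2 was at 2.02, 1.91 and 2.89 TPM and at 1.73, 1.29 and 1.23 TPM (-0.43 ± 0.16, adjusted p = 0.0617). Both had groups that lay apart without passing, but Aldh1l1 passed with a pseudocount of 5 (adjusted p = 0.0452), and Slc1a2 passed without Egr1 culture replicate 1 (adjusted p = 0.0484), with quantile normalization (adjusted p = 0.0405) and with quality weights (adjusted p = 0.0386).

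The remaining 2 genes overlapped between the culture groups. Gja1 was at 28.6, 30.3 and 34.7 TPM in Control culture and at 33.2, 30.9 and 28.4 TPM in Egr1 culture (-0.01 ± 0.09, adjusted p = 0.915), and Agt at 6.46, 4.32 and 5.4 TPM and at 5.78, 4.02 and 5.56 TPM (-0.06 ± 0.17, adjusted p = 0.79). Under median-of-ratios scaling both estimates turned positive, to 0.09 and 0.03.

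**Figure D4:**
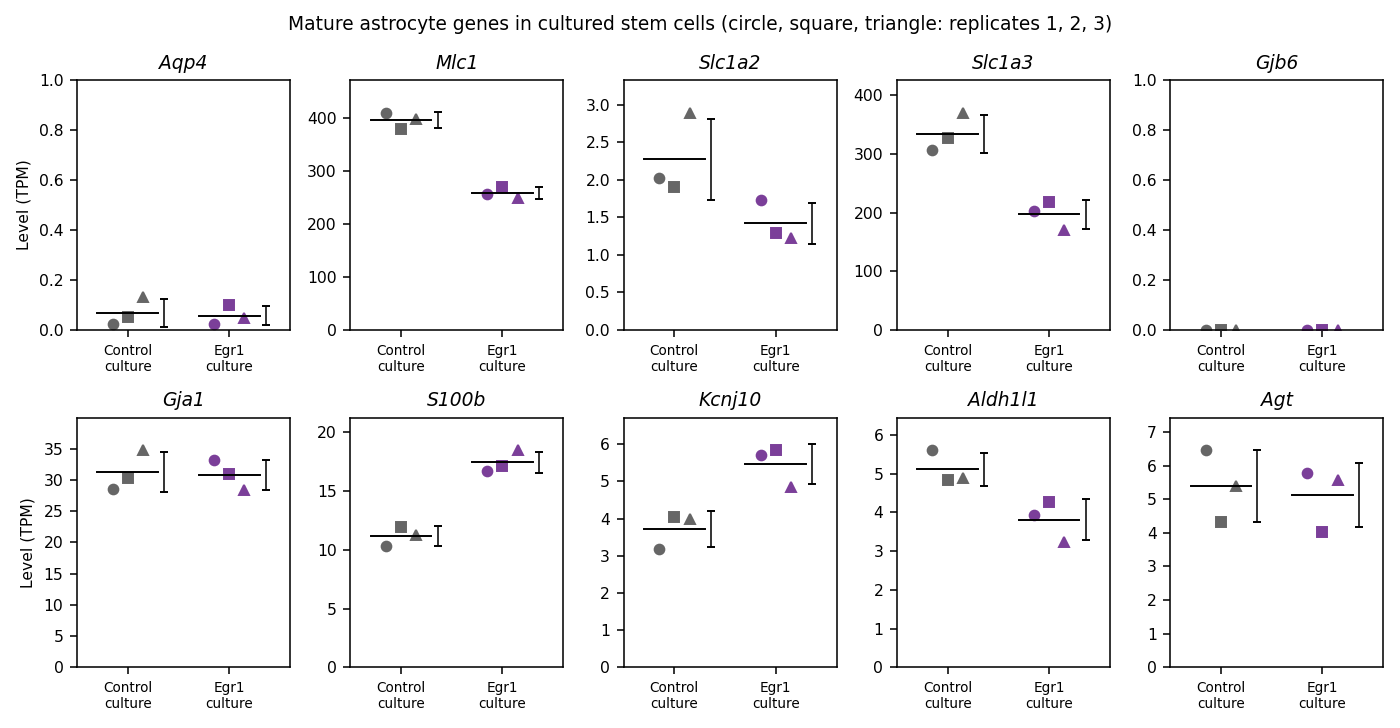
Level in TPM (vertical axes, from 0) of each of the 10 genes in the 6 culture libraries, with symbols for replicates, a line at the mean and a bar for the SD (n = 3), not drawn where libraries are listed at 0. Mlc1 and Slc1a3 are lower and S100b and Kcnj10 higher in every Egr1 culture library, and Aqp4 and Gjb6 are at or near 0.

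The other astrocyte genes were called in both directions in the cultures, where 15.2% of all genes passed higher and 29% lower. Of 13 tested endfoot and ion homeostasis genes 4 rose and 5 fell, Slc4a4 from 55.3 ± 6.22 to 21.0 ± 3 TPM and Dag1, dystroglycan, from 206 ± 22.1 to 388 ± 53.8 TPM. Of 10 uptake genes 1 rose and 5 fell, among them Glul from 144 ± 5.82 to 85.4 ± 4.34 TPM (-0.75, adjusted p = 3.05e-05) and the glutamine transporter Slc38a3 from 62.2 ± 1.36 to 20.7 ± 2.35 TPM. Of 14 metabolism genes 6 rose and 7 fell, of 13 identity markers 5 rose and 8 fell, and of 14 fate regulators 5 rose and 4 fell. Gfap, from 1.16 ± 0.251 to 5.73 ± 0.636 TPM, was among those that rose. The other SLC1 transporters were split as well: the neuronal transporter Slc1a1 rose from 2.98 ± 0.592 to 10.5 ± 1.88 TPM, Slc1a6 rose, and Slc1a4 fell from 36.7 ± 3.49 to 16.3 ± 1.5 TPM. Among other connexins Gjc3 rose from 1.56 ± 0.21 to 38.7 ± 0.458 TPM (3.96, adjusted p = 3.66e-08). Of the oligodendrocyte markers 4 of 4 tested rose, with sums of 96.5 to 106 TPM in Control culture and 201 to 207 TPM in Egr1 culture. Of the precursor markers Olig1, Olig2 and Cspg4 fell and Pdgfra rose. Of 6 tested mature neuron genes 5 rose and 0 fell, with sums of 16.4 to 18.8 and 43.9 to 52.4 TPM. Of 7 tested neuroblast and immature neuron genes 3 rose and 0 fell. The part of any of these cell types in the S100b and Kcnj10 changes was not tested.

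**Figure D5:**
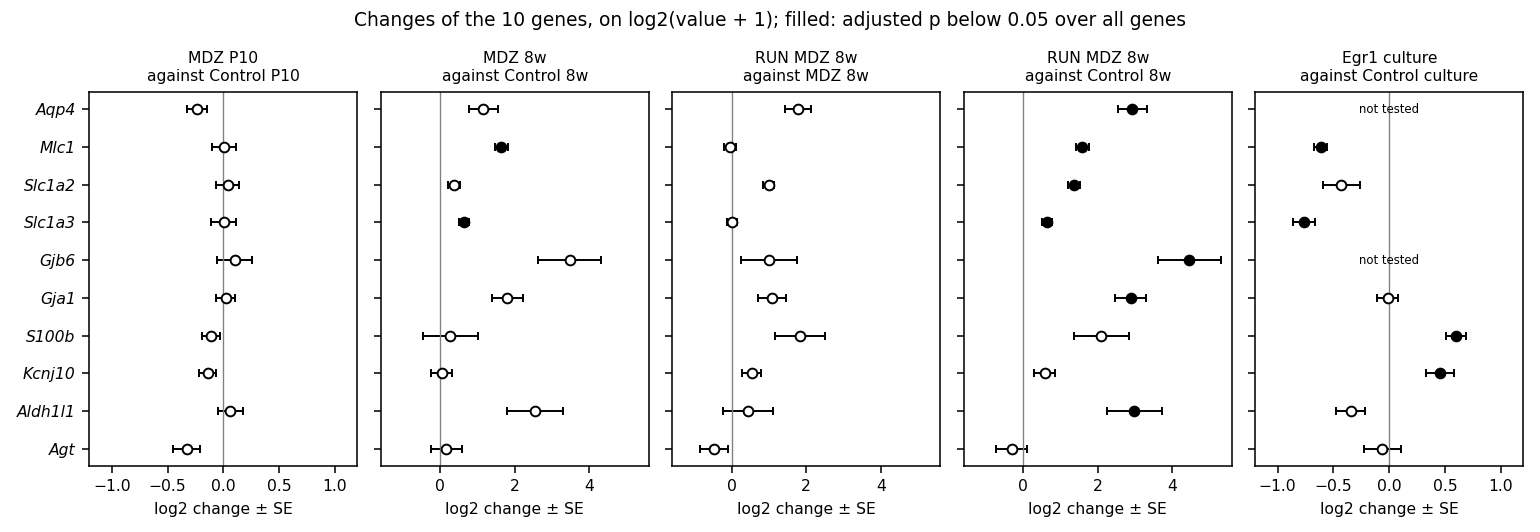
Log2 change ± SE (horizontal axes, on log2(value + 1)) of each of the 10 genes in the 5 comparisons, with filled points for an adjusted p below 0.05 over all genes; axes differ between the 8-week panels and the other panels. Filled points are 0 at P10, 2 and 7 against Control 8w, 0 between the exposed groups and 4 in culture.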

How the data were processed

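RNA of 21 libraries was analysed, and the 10 chromatin samples of the series were not analysed here. The authors deposited 1 table per library: FPKM values at P10, whose totals differ between libraries, and TPM values at 8 weeks and in culture, which have the same total in every library. The unit was read from the values. The submitters' processing notes name TopHat, Bowtie2, DESeq2 and the mm10 build, with no role or version, and a directional library kit is named per the labels; the strand setting of the counting is not given in the sources used here, so overlapping antisense genes cannot be told apart. Depth is unknown at 8 weeks. From the steps between low values, relative depth was 0.572 to 1 at P10 and 0.898 to 1 in culture.

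Values were taken as log2(value + 1), genes with a mean of at least 1 were kept, and groups were compared with limma 3.58.1 (R 4.3.3) with an intensity trend, Benjamini-Hochberg adjustment over all genes and a threshold of 0.05. The 3 groups at 8 weeks shared one fit. Ratios within a library used exact two-sided permutation tests. The tables held no counts, so no count test was run. Named genes outside the 10 were up to 3 of each list with the largest change among those that passed, and Glul, Hepacam, Sox9, Gfap, Nes and Egr1 always; other names beside a count, Cldn5, Pdgfra, Foxj1, Ttr, Ren1 and the ependymal sum without Ttr and Folr1 were chosen after their values were seen. The members and lists were chosen with earlier results of these data known. The fits were tested on simulated data. Replicate numbers were not treated as pairs in the main fits. Deviations of same-numbered libraries correlated at most at 0.13 (MDZ 8w and RUN MDZ 8w replicate 1). A shared origin of same-numbered libraries was not tested.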

Additional observations from a re-analysis of the deposited data

Results flagged for a closer look

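Aqp4 had estimates of opposite sign in the comparisons of exposed with control mice at the 2 ages. At P10 its log2 change was -0.24, with every MDZ P10 library below every Control P10 library, as in 6.61% of all genes. At 8 weeks it was 1.16, with every MDZ 8w library above every Control 8w sample, as in 27.8% of all genes. Neither passed the threshold in limma (adjusted p 0.367 and 0.135). The estimates of Agt (-0.33 and 0.16), Kcnj10 (-0.14 and 0.04) and S100b (-0.11 and 0.27) changed sign in the same way. All 10 estimates were positive at 8 weeks, where the median change of all genes was 0.36. The difference between the ages was not tested, since the values are FPKM at P10 and TPM at 8 weeks.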

How the results depend on the processing

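The 10 genes had 0, 2, 0, 7 and 4 calls in the P10, MDZ 8w against Control 8w, RUN MDZ 8w against MDZ 8w, RUN MDZ 8w against Control 8w and culture comparisons, and all genes 1, 783, 24, 1727 and 5486. At P10 all genes had 2 calls with a pseudocount of 5, 4 with a mean of at least 5, 0 with median-of-ratios scaling, 4 with quantile normalization and 5 with quality weights, and 0 to 101 with 1 library left out (101 without Control P10 replicate 2). In MDZ 8w against Control 8w the members had 1 call without the filter, 1 with median-of-ratios scaling, 1 with quantile normalization, 0 with quality weights, 4 with the Control 8w libraries apart, 1 with only the 2 groups and 1 to 3 with 1 library left out. All genes there had 1410 and 461 calls with pseudocounts of 0.1 and 5, 152 with quantile normalization, 19 with quality weights, 1787 with the controls apart and 207 to 2928 with 1 library left out. In RUN MDZ 8w against MDZ 8w the members had 1 call with quantile normalization, 3 with quality weights, 1 with the controls apart, 2 with only the 2 groups and 0 to 2 with 1 library left out, and all genes had 432 with quality weights, 122 with the controls apart, 360 with only the 2 groups and 0 to 275 with 1 library left out. In RUN MDZ 8w against Control 8w the members had 0 calls with quality weights, 0 with only the 2 groups and 5 to 9 with 1 library left out, and all genes had 406 with quantile normalization, 0 with quality weights, 2904 with the controls apart, 0 with only the 2 groups and 910 to 3952 with 1 library left out. In culture the members had 5 calls with a pseudocount of 5, quantile normalization or quality weights, 3 with a mean of at least 5, which left out Kcnj10, and 3 to 4 and all genes 4383 to 5012 with 1 library left out.

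Estimates near 0 changed sign. At P10 these were Gja1 (-0.0022), Slc1a3 (-0.018) and Mlc1 (-0.015) with median-of-ratios scaling, Slc1a2 (-0.036) with quantile normalization, and Gja1 (-0.025), Slc1a3 (-0.046) and Mlc1 (-0.051) with quality weights. With 1 library left out they ran at P10 from -0.046 to 0.10 for Gja1, -0.10 to 0.056 for Slc1a3, -0.11 to 0.080 for Mlc1, -0.020 to 0.18 for Aldh1l1, -0.076 to 0.28 for Gjb6 and -0.033 to 0.13 for Slc1a2, and in MDZ 8w against Control 8w from -0.11 to 0.39 for Kcnj10 and -0.35 to 1.10 for S100b. In RUN MDZ 8w against MDZ 8w Slc1a3 was at -0.026 with median-of-ratios scaling and -0.056 to 0.067 with 1 library left out, and Mlc1 at 0.030 with quantile normalization and -0.13 to 0.042. In culture Agt and Gja1 were at 0.032 and 0.094 with median-of-ratios scaling and 0.016 and 0.064 with quantile normalization, Gja1 at 0.012 with quality weights, and with 1 library left out they ran from -0.19 to 0.074 and -0.074 to 0.062. The log2 ratio of Slc1a2 to Slc1a3 ran from -0.089 to 0.12 at P10 and -0.030 to 0.23 in culture, and that of Gjb6 to Gja1 from -0.084 to 0.33 at P10 and -0.20 to 0.058 in RUN MDZ 8w against MDZ 8w. The cause of these changes was not tested.

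Quantile normalization moved the median change of all genes from 0.36 to -0.06 in MDZ 8w against Control 8w (124 higher and 28 lower) and from 0.51 to -0.09 in RUN MDZ 8w against Control 8w (278 higher and 128 lower). Deviations of same-numbered libraries from their group means correlated at -0.08, 0.12 and 0.11 at P10, -0.02 to 0.13 at 8 weeks and -0.05 to 0.02 in culture. With the replicate number as a block, all genes had 0 calls at P10 and the members 4 in culture. At 8 weeks the block could not be fitted with the averaged Control 8w sample and was run with the libraries apart, an alternative chosen after seeing the data, which gave 1227, 14 and 2595 calls over all genes and 3 for the members in MDZ 8w against Control 8w. In RUN MDZ 8w against Control 8w S100b (adjusted p = 0.0136) and Kcnj10 (0.0315) passed under this block and Aldh1l1 did not (0.0561), and without the block S100b passed with the libraries apart (0.0369). Without Control 8w replicate 1 that group is 1 sample, assumed to vary like the others. Levels near 0 in Control 8w are limited by an unknown depth.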
